A study of Mus musculus with 61 samples.

Results

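Single oocytes and single granulosa cells from the ovaries of solvent-injected mice were compared across all genes of the deposited table. The cells were chosen by their labels: 16 control oocytes and 16 control granulosa cells, or 32 of the 61 cells of the series, the others being the cells of mice given doxorubicin, a DNA-damaging anti-cancer drug. Every cell of both groups came from a wild-type (WT) CD-1 mouse, an outbred stock, at postnatal day 5, and was collected 6 hours after an intraperitoneal injection of the solvent alone. The series as a whole asks how such drugs harm the oocyte, and the contrast described here shows how its germ cell and its somatic cell differed without the drug. No animal, litter or culture is named for any cell, so each group counted as 1 sample. No difference below was tested, and the range over cells is given in place of a replicate error.

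At this age the mouse ovary is filled with primordial follicles, in each of which a small oocyte arrested in meiotic prophase is enclosed by a single layer of flat granulosa cells, and the earliest follicles have begun to grow. The oocyte accumulates transcripts for its coat and for the early embryo and keeps retrotransposons silent through small RNAs. The granulosa cell feeds the oocyte through gap junctions, supplies the ligand of its KIT receptor, and lays down the basement membrane around the follicle.

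Levels are given as CPM, counts per 1000000 counts of a library or of the summed cells of a group. CPM is a share of a library, so fewer transcripts per cell and a smaller share of a larger transcriptome cannot be told apart. A difference is given as the log2 ratio of the CPM of the summed oocytes over that of the summed granulosa cells, so positive values are higher in oocytes and 4-fold is 2 on this scale. Intervals in parentheses are 95% exact conditional binomial (Clopper-Pearson) intervals. They cover counting error only, since the reads carry no molecular identifiers and PCR copies of 1 molecule count more than once. The cells had totals of 6834594 to 31262609 counts.

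The labels were first set beside defining markers. Kit, the receptor tyrosine kinase of the oocyte, had 306 to 1567 CPM in the oocytes (median 480.3) and 0 to 6.88 CPM in the granulosa cells (median 0.205). The coat gene Zp2 had 4234 to 12492 CPM in oocytes (median 7889) and 1.98 to 1878 CPM in granulosa cells (median 163), and the RNA helicase Ddx4 had 112 to 497 CPM (median 277) against 0 to 28 CPM (median 0.0863). All 3 separated the groups without overlap. The granulosa side was less uniform. Wt1, a transcription factor of the somatic gonad, had 0 to 278 CPM in granulosa cells (median 36.3) and at most 12.5 CPM in an oocyte, with 10 of 16 granulosa cells above every oocyte. Krt18, a keratin of simple epithelia, had a median of 0 in the granulosa cells: only 3 of 16 had 5 or more reads of it, and the highest, granulosa cell 3, had 642 CPM.

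Some granulosa libraries stood apart. Over 16 oocyte markers the summed level lay between 22941 and 54443 CPM in oocytes and between 335 and 14652 CPM in granulosa libraries (median 1347). In granulosa libraries 2, 8, 13 and 14 this sum exceeded that of 16 granulosa markers. The summed level of 10 stroma markers, among them fibrillar collagens, exceeded the granulosa markers in those 4 and in libraries 3 and 16. In oocytes, the granulosa markers summed to 2.86 to 771 CPM and the stroma markers to 0.926 to 1116 CPM. Values without the 4 libraries, or without the 6, are given beside several results below. Some of these markers also belong to lists below, whose values without these libraries depend in part on that choice. The steroidogenic sum, in which Hsd3b1 alone reached 5 CPM in a group, had a median of 490.0 CPM in granulosa libraries and the smooth muscle and pericyte sum 79.3 CPM. The endothelial sum had a median of 0.237 CPM in granulosa libraries and a highest value of 366 CPM, and of its 6 markers Cldn5, Emcn, Kdr and Pecam1 were below 5 CPM in both groups.

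**Figure D1:**
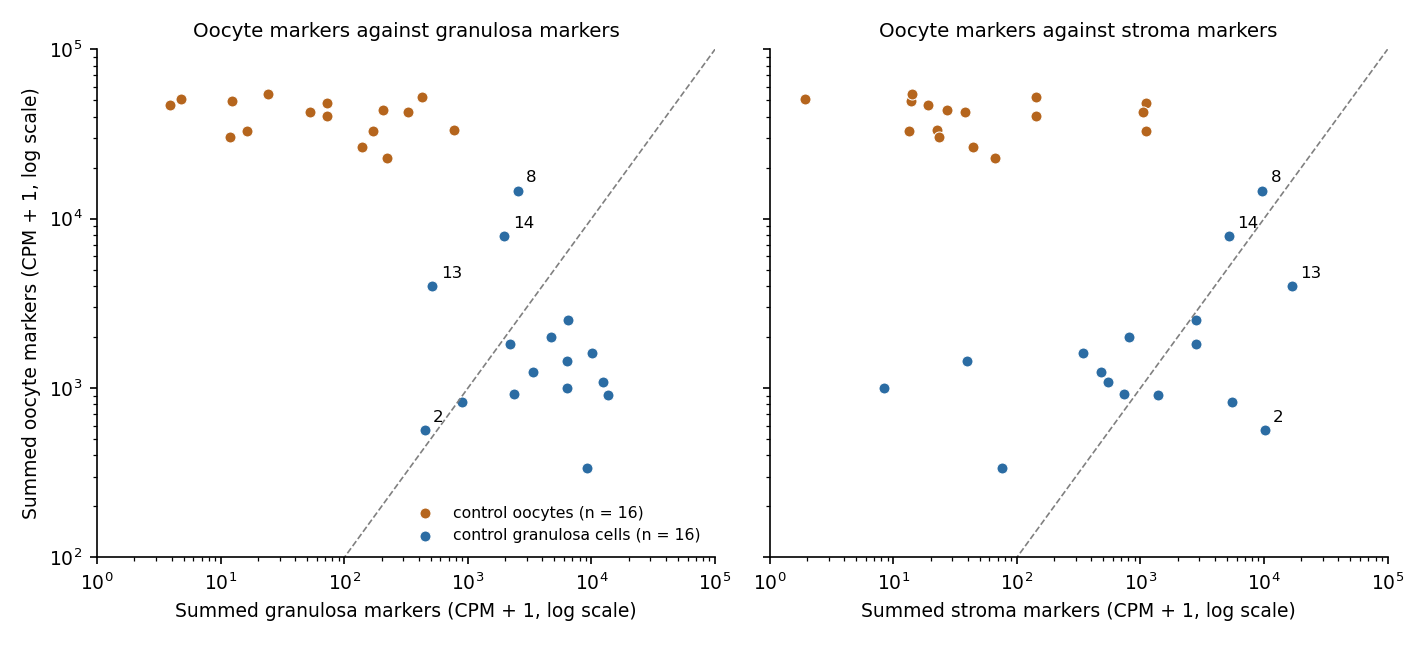
Summed CPM of 16 oocyte markers (vertical axis) against that of 16 granulosa markers (left) and of 10 stroma markers (right) in each of the 32 libraries, on log axes after adding 1. The dashed line marks equal sums; the granulosa libraries 2, 8, 13 and 14 are numbered and lie above it on the left, and every oocyte lies above it in both panels.

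Oocyte transcripts in those libraries were not in the proportions of an oocyte. In granulosa library 8, which had the highest oocyte marker sum, Ooep stood at 234% of its level in the summed oocytes, Smc1b at 187%, Sohlh1 at 87.8% and Padi6 at 34.2%. In the same library Zp2 stood at 9.49%, Kit at 1.2%, Tdrd1 at 0.0275% and Jag2 at 0.0441% of theirs, and Sohlh2, Wee2 and Slc27a2 were listed at 0. Over all 822 genes with at least 50 CPM in oocytes and a 4-fold higher level there, 321 reached or passed their oocyte level in at least 1 granulosa library, while 54 stayed under 1% of it in every granulosa library. The source of the oocyte transcripts in granulosa libraries was not tested.

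Between the groups, 14 of 15 piRNA genes, 14 of 19 meiotic genes and 6 of 6 oocyte NLRP genes were at least 4-fold higher in oocytes. On the other side, 16 of 17 lineage transcription factors, 9 of 10 MHC class I genes and 22 of 22 immediate early genes were at least 4-fold higher in granulosa cells. The whole table gives the background to such counts. A gene was read where 1 of the groups had 5 CPM or more, which held for 12373 genes. Of these, 2025 (16.4%) were at least 4-fold higher in oocytes, and 2439 (19.7%) were at least 4-fold higher in granulosa cells. The other 7909 differed by less than 4-fold, and the median log2 ratio over all genes read was -0.03, with quartiles of -1.44 and 1.26. The sides rested on different numbers of cells. Of the oocyte-high genes, 1839 had 5 or more reads in at least 12 oocytes, 1904 stayed 4-fold whichever single cell was left out, and 15 drew over 50% of their oocyte counts from 1 cell. Of the granulosa-high genes, 582 had 5 or more reads in at least 12 granulosa cells, 1682 stayed 4-fold, and 913 drew over 50% of their counts from 1 cell. When the medians over cells were compared in place of the sums, 5688 genes were 4-fold higher in oocytes and 744 in granulosa cells. The cells of the 2 groups did not overlap for 382 oocyte-high and 42 granulosa-high genes.

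**Figure D2:**
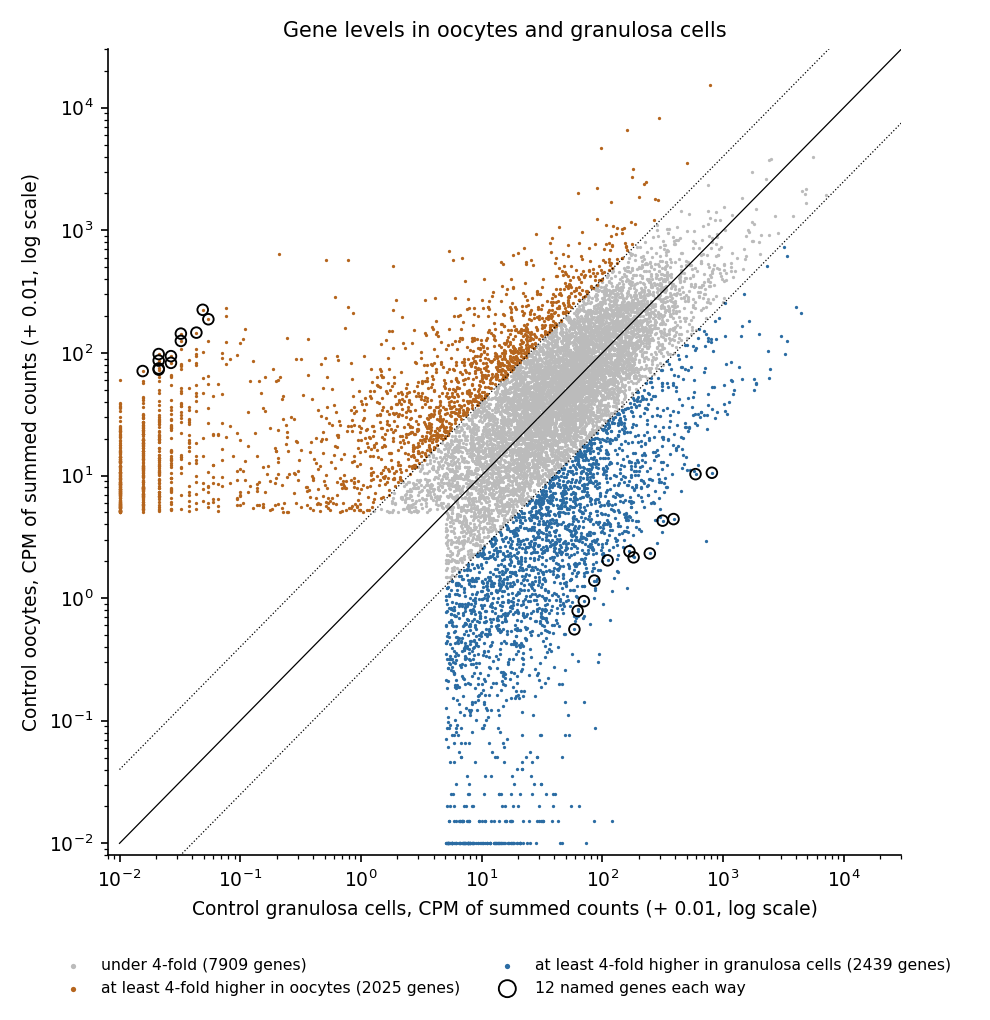
CPM of the summed control oocytes against CPM of the summed control granulosa cells for the 12373 genes read, on log axes after adding 0.01. The solid line marks equal levels and the dotted lines a 4-fold difference; 2025 genes lie above the upper line, 2439 below the lower one, and the circled named oocyte genes sit at the left edge, with almost no granulosa counts.

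Oocytes resembled each other more than granulosa cells did. Over the genes read, Spearman's rho between 2 cells had a median of 0.873 over the 120 pairs of oocytes, with a range of 0.774 to 0.933, and of 0.458 over the 120 pairs of granulosa cells, with a range of 0.364 to 0.616. The pairs share cells. All column headers carry the same code after the cell's name, which does not say whether the cells were collected or amplified together. The groups also differed in the number of genes seen per cell, and its relation to rho was not tested. After each cell was thinned to 1000000 counts, 10587 to 12819 genes had a count in an oocyte and 4147 to 9067 in a granulosa cell. Each of 7828 genes had 5 or more reads in all 16 oocytes, against 1038 genes in all 16 granulosa cells.

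Outside the usual marker lists, the 12 oocyte genes that kept the largest difference whichever single cell was left out were Slc27a2, Sycp2l, Pcx, Cyp46a1, Osgin1, Olfr976, Tex19.1, Atp2c2, Ankrd6, Abca2, Prickle1 and Actn3. Slc27a2 (chr2:126552407-126588243, plus strand, GRCm38), which activates very long-chain fatty acids, had 16.1 to 349.5 CPM in the oocytes (median 100.4) and at most 0.174 CPM in a granulosa cell, a log2 ratio of 12.66 (11.30 to 14.53). Sycp2l (chr13:41114307-41174351, plus strand), a germ-cell relative of a synaptonemal complex gene, had the narrowest range in oocytes of the 12, 66.8 to 126 CPM (median 96.2), and at most 0.0882 CPM in a granulosa cell. All 12 were listed at 0 in most granulosa cells, and all 16 oocytes lay above all 16 granulosa cells for each of them.

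Several of the 12 are enzymes or transporters of metabolism. Pcx, pyruvate carboxylase, which makes oxaloacetate from pyruvate, had 83.0 to 474 CPM in oocytes (median 209.9) and at most 0.185 CPM in a granulosa cell, with a log2 ratio of 12.50 (11.45 to 13.81). Cyp46a1, which hydroxylates cholesterol for its removal, had 17.9 to 167 CPM (median 92.8) against at most 0.0882. Abca2, a lipid transporter, had 25.4 to 410.3 CPM (median 166), and Atp2c2, a calcium and manganese pump of the secretory pathway, 63.3 to 277 CPM (median 143). In granulosa cells neither passed 0.185 CPM. The planar polarity genes Prickle1 and Ankrd6 had medians of 68.7 and 64.5 CPM in oocytes, and Tex19.1, which restrains retrotransposons in germ cells, one of 88.2. Actn3, an actinin best known from fast muscle fibres, ran from 0.889 to 129 CPM in oocytes (median 59.5), and Olfr976, an olfactory receptor gene, from 0.289 to 219 CPM (median 50.2). These 2 thus also had an oocyte close to the granulosa level.

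**Figure D3:**
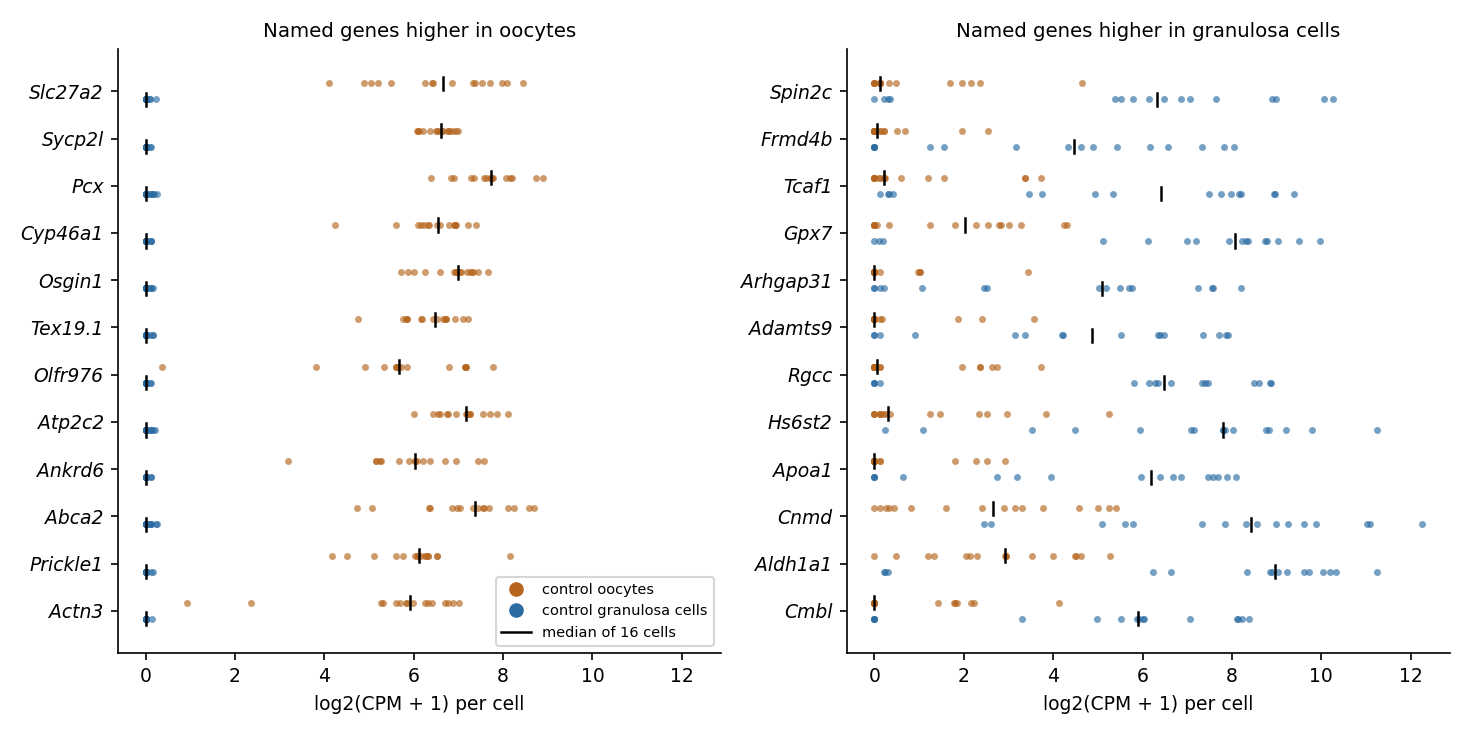
log2(CPM + 1) in each cell for the 12 named genes of each direction; points are single cells, 16 a group, and black bars their medians. For the oocyte genes (left) no granulosa cell overlaps an oocyte, while for the granulosa genes (right) some granulosa cells sit at 0 among the oocytes.

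Chosen by the same rule, the 12 granulosa genes were Spin2c, Frmd4b, Hs6st2, Tcaf1, Arhgap31, Gpx7, Adamts9, Rgcc, Apoa1, Cnmd, Aldh1a1 and Cmbl, with log2 ratios of -6.75 to -5.78 (Cmbl, -6.45 without oocyte 7). Cnmd (chr14:79637690-79662170, minus strand), which encodes chondromodulin, a secreted inhibitor of vessel growth, was the only one with 5 or more reads in all 16 granulosa cells. It had 4.43 to 4914 CPM there (median 346) and 0 to 41.3 CPM in oocytes (median 5.38), and 13 of 16 granulosa cells lay above every oocyte. Aldh1a1 (chr19:20492715-20643465, plus strand), which makes retinoic acid, had 0.161 to 2439 CPM in granulosa cells (median 502) and 0 to 37.7 in oocytes (median 6.59), again with 13 of 16 above every oocyte. Spin2c (chrX:153832225-153834243, plus strand), a gene of the spindlin family of chromatin readers, had a log2 ratio of -6.75 (-6.89 to -6.61), or -7.72 without oocyte 7, with 0 to 1227 CPM in granulosa cells (median 79.0) and a median of 0.0971 CPM in oocytes.

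Enzymes of the cell surface, the matrix and redox balance were among the other named granulosa genes. Hs6st2, which sulphates heparan chains, had 0.176 to 2425 CPM in granulosa cells (median 221) and at most 36.9 in an oocyte. Gpx7, a peroxidase of the endoplasmic reticulum, had a granulosa median of 269.9 CPM and an oocyte median of 3.15 CPM, with 13 of 16 granulosa cells above every oocyte. Apoa1, the main protein of high-density lipoprotein, had medians of 72.3 and 0 CPM, and Adamts9, a matrix protease, of 31.3 and 0 CPM. Unlike the oocyte genes, every one of the 12 had granulosa cells that overlapped oocytes, and removing the 4 or the 6 libraries that stand apart left their log2 ratios between -7.12 and -6.02 or between -7.35 and -5.47, respectively. In the doxorubicin cells the 24 named genes lay on the same side, with values from 0.81 (Tex19.1) to 10.23 (Actn3) for the oocyte genes and from -6.11 (Cnmd) to -0.99 (Adamts9) for the granulosa genes.

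Levels between genes were compared per exon length, as TPM, the length-scaled share per 1000000, of the summed cells. In oocytes the 10 highest genes were Padi6, Dppa3, Zp2, Gm28437, Ldhb, Zp3, Ubb, Nlrp14, Eef1a1 and Ftl1. Padi6, a component of the cytoplasmic lattices of the egg, stood first with 18264 TPM against 871 TPM in granulosa cells. Dppa3, which protects the maternal genome from loss of methylation, followed with 12177 TPM, and Zp2 with 9136 TPM. In granulosa cells the list was Gm28437, Ftl1, Gm37376, Gm29216, Actb, Eef1a1, Inha, Gm28661, Fos and Actg1. Inha, the alpha subunit of inhibin, had 6302 TPM there and 201 TPM in oocytes. Gm28437, Gm28661 and Gm29216 are annotated as unprocessed pseudogenes of chromosome 1. The first 2 were 100% identical over their whole length to the mitochondrial transcripts mt-Co3 and mt-Co2, and the third aligned to mt-Co1 at 99.8% identity. No mitochondrially encoded gene has a row of its own in the table, so reads of these pairs cannot be told apart here. Ubb, Ftl1, Eef1a1, Actb and Actg1 have many near-identical copies, and their levels are uncertain for the same reason.

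The 3 coat genes were read together. Zp1 had 622 to 2750.2 CPM in oocytes (median 1738) and 0.0920 to 873 in granulosa cells (median 89.0), and Zp3 had 1445 to 5269 CPM (median 3288) against 1.01 to 681 (median 134). Their log2 ratios were 3.86 (4.68 without granulosa library 8) for Zp1, 4.79 for Zp2 and 4.15 for Zp3. They were 4.85, 5.87 and 4.71 without the 4 granulosa libraries with more oocyte than granulosa markers. The 3 genes are among the oocyte markers that chose those libraries, so the larger ratios follow in part from that choice. Only Zp1 overlapped, in granulosa library 8.

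Promoters of 4 genes are shown, 2 from each cell type, because 3 of them are among the 10 highest genes per length and the fourth encodes the hormone receptor of the granulosa cell. The sequences are from RefSeq on GRCm38.p6, 250 bases before to 50 bases after the start, 5′ to 3′ on the strand of the gene, and capitals mark letters found on either strand: the E-box CANNTG, the NOBOX element TAATTG, the NR5A1 half-site AAGGTCA and the TATA box TATAAA. Zp3 lies at chr5:135979855-135980154 (plus strand), Padi6 at chr4:140742594-140742893 (minus strand), Inha at chr1:75507359-75507658 (plus strand) and Amhr2 at chr15:102445117-102445416 (plus strand).
Zp3: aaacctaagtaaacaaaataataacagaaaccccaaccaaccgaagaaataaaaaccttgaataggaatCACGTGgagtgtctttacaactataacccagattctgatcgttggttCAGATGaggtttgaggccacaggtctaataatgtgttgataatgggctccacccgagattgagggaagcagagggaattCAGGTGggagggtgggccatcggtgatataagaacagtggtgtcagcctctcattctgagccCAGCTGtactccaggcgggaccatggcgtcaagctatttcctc
Padi6: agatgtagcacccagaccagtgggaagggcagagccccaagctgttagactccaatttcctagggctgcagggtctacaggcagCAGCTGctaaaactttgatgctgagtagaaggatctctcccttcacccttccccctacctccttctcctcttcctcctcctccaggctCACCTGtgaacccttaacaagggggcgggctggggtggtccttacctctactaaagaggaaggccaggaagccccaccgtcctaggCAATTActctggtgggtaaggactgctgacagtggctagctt
Inha: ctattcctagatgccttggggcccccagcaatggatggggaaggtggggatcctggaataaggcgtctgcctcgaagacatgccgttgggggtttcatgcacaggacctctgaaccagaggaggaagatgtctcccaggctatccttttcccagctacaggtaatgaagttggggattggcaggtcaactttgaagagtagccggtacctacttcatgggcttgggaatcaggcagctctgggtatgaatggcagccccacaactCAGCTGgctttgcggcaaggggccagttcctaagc
Amhr2: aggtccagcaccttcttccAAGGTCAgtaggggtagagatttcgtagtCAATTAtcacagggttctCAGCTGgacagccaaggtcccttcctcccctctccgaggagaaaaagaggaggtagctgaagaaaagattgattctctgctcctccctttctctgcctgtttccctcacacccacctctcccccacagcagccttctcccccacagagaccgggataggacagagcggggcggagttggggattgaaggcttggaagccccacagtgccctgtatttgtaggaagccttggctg
The Zp3 window held 4 E-boxes, the first of them CACGTG, and no other of the 4 motifs. The Padi6 window held 2 E-boxes and 1 NOBOX element, the latter read as CAATTA on the opposite strand. The Inha window held 1 E-box, and the Amhr2 window 1 E-box, 1 NOBOX element and 1 NR5A1 half-site. Such letters are common: of the 27025 genes with a promoter in the table, 72.1% held an E-box, 8.15% a NOBOX element, 4.66% an NR5A1 half-site and 14.2% a TATA box. Among the named oocyte genes 6 of the 10 with a promoter held an E-box, and among the named granulosa genes 6 of 11. For all genes 4-fold higher in oocytes or in granulosa cells the E-box shares were 70.3% and 65%, and the TATA box shares 6.31% and 9.91%. A match is a description of letters and not a bound site.

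**Figure D4:**
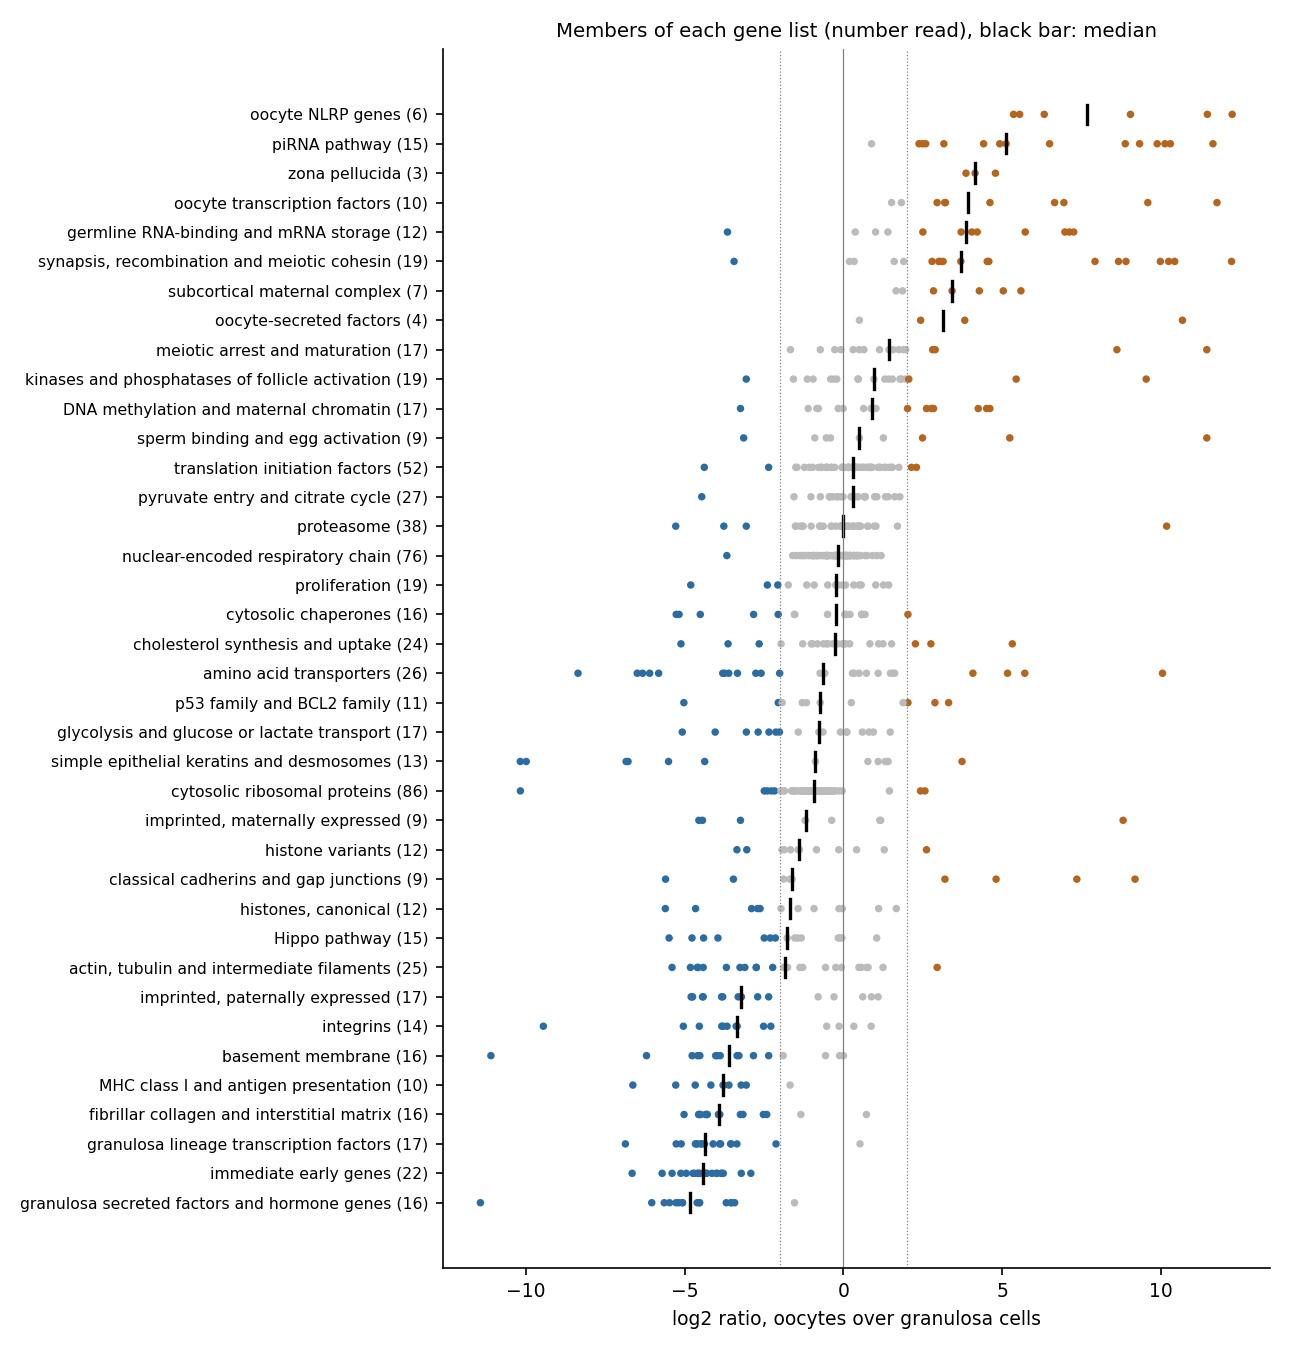
log2 ratio of oocytes over granulosa cells for every member read of the 38 pathway lists; coloured points are at least 4-fold apart, black bars are list medians, and dotted lines mark 4-fold. Medians run from 7.69 for the oocyte NLRP genes to -4.84 for the granulosa secreted factors.

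Of 10 oocyte transcription factors read, 8 were at least 4-fold higher in oocytes and none in granulosa cells, with a median log2 ratio of 3.92 (4.66 without granulosa library 8) beside -0.03 over all genes. Nobox, a homeobox factor of the primordial follicle, had 1206 to 3129 CPM in oocytes (median 2158) and 0.276 to 540.4 in granulosa cells (median 3.80), without overlap. Sohlh2, a bHLH factor that acts upstream of it, had 152 to 303 CPM (median 239.9) against at most 0.243, and its partner Sohlh1 494 to 902 CPM (median 697) against 0 to 624 (median 0.348). The 2 partners thus differed: Sohlh2 was near 0 in all 16 granulosa libraries and Sohlh1 had 5 or more reads in 8 of them. Lhx8 and Figla, which are needed for oocyte survival and for the coat genes, had log2 ratios of 6.95 (8.47 without granulosa library 15) and 3.22. Tbpl2, the oocyte form of the TATA-binding protein, had 29.1 to 132 CPM (median 71.1) against at most 8.57.

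Among the secreted factors of the oocyte, Gdf9 and Bmp15 of the TGF-beta family were unlike in their spread. Gdf9 had 409 to 1469.7 CPM in oocytes (median 922) and 0 to 494 in granulosa cells (median 0.716). Bmp15 had 0.254 to 75.8 CPM in oocytes (median 33.6) and at most 0.0920 in a granulosa cell. Both were higher in oocytes, with log2 ratios of 3.82 (4.71 without granulosa library 13) and 10.69. Maternal-effect genes were high already in these oocytes of postnatal day 5. Of the subcortical maternal complex, which the early embryo needs, 5 of 7 members read were 4-fold higher in oocytes. Ooep and Khdc3 were under 4-fold at 1.66 (2.47 without granulosa library 8) and 1.86. All 6 NLRP genes read were 4-fold higher in oocytes, with a median of 7.69 (8.90 without granulosa library 15). Nlrp14 had 1532 to 8963 CPM in oocytes (median 6566) and 2.25 to 1235 in granulosa cells (median 81.5). Members of this family are near copies of each other, and counts may be split among them.

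The piRNA pathway, which makes the small RNAs that silence retrotransposons in germ cells, lay almost wholly on the oocyte side. Of 15 members read, 14 were 4-fold higher in oocytes and none in granulosa cells, with a median log2 ratio of 5.13 (9.27 without granulosa library 15). Tdrd1, a tudor-domain scaffold of the pathway, had 263 to 1113 CPM in oocytes (median 605) and at most 0.437 in a granulosa cell. Piwil2, a PIWI protein, had 79.2 to 980.0 CPM (median 279) against at most 11.2. Piwil1, another PIWI protein, had a median of 6.25 CPM in oocytes and no count in any granulosa cell, so it was at least 646-fold higher when the granulosa group was set to 3 counts. Gtsf1 and Mael, cofactors of the PIWI proteins, had smaller ratios, 2.59 (3.57 without granulosa library 8) and 4.42, with granulosa medians of 55.0 and 27.0 CPM. Tdrd7 was the member that did not reach 4-fold, at 0.89, and passed it without granulosa library 8, at 2.20.

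Genes of synapsis, recombination and meiotic cohesion were still read in oocytes that had entered arrest. Of 19 members read, 14 were 4-fold higher in oocytes, with a median of 3.70, and 5.32 without the 4 libraries (4.49 without library 8 alone). Sycp3, an axial element protein, had 418 to 1121 CPM in oocytes (median 807) and 0.229 to 1038 in granulosa cells (median 29.0), the highest being library 8. Stag3, a meiotic cohesin subunit, had 5.66 to 55.6 CPM in oocytes (median 34) and at most 1.65 in a granulosa cell. Smc1b, its partner, had 131 to 368 CPM (median 222) against a granulosa median of 0.223 CPM and 439.8 CPM in library 8, and its log2 ratio of 3.0 became 7.07 without that library. Spo11 and Dmc1, which make and repair the meiotic breaks, were below 5 CPM in both groups. Hormad2 was the only member 4-fold higher in granulosa cells, at -3.45, and this rested on library 8, where it had 235 CPM; without that library the ratio was 6.25.

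Regulators of meiotic arrest and of resumption were read at this stage as well. Wee2, the oocyte kinase that holds CDK1 inactive, had 43.6 to 276 CPM in oocytes (median 151) and at most 0.277 in a granulosa cell. Gpr3, the receptor that keeps cyclic AMP high in the oocyte, had 0 to 43.7 CPM (median 14.7) against at most 0.601. Fzr1, an activator of the anaphase-promoting complex, had 757 to 1271 CPM (median 1071) against 0 to 498 (median 103), without overlap. Of the list's 17 members read, 4 were 4-fold higher in oocytes and none in granulosa cells, beside 16.4% and 19.7% over all genes read. Without the 4 libraries the counts were 6 and 1, and without the 6 they were 8 and 1. The cyclin genes Ccnb1 and Ccnb2 differed by 0.65 (1.79 without granulosa library 6) and 0.31 (1.51 without granulosa library 6), the latter -0.09 without the 4 libraries.

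Stored-mRNA and chromatin genes divided more finely. Of 12 germline RNA-binding genes read, 8 were 4-fold higher in oocytes, among them Dazl at 5.73 (7.11 without granulosa library 8), Ybx2 at 3.71 (4.43 without granulosa library 9) and Zar1 at 2.5. Msi2, an RNA-binding protein of many stem cells, was higher in granulosa cells at -3.65 (-6.36 without oocyte 16 and -2.56 without granulosa library 3). Of 17 genes of DNA methylation and maternal chromatin read, 7 were 4-fold higher in oocytes. Uhrf1, which brings the maintenance methyltransferase to DNA, had 306 to 2004 CPM in oocytes (median 942) and 0 to 196 in granulosa cells (median 1.89), without overlap. Zfp57, which guards imprints, had 87.4 to 217 CPM (median 127) against 0 to 48.7 (median 0.785), and H1f8, the oocyte linker histone, had a ratio of 2.62. Dnmt1, the methyltransferase, was close to the threshold at 2.02 and ran from 1.82 without oocyte 16 to 2.64 without granulosa library 5, with 1.86 without the 4 and 1.88 without the 6 libraries. Tet1, which oxidises methylated cytosine, was higher in granulosa cells at -3.24.

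In the ribosome and the proteasome, the oocyte-high members were copies known from the testis. Of 86 cytosolic ribosomal protein genes read, 2 were 4-fold higher in oocytes, Rpl10l and Rpl39l, each an autosomal copy of an X-linked gene. Rpl10l had 43.7 to 169 CPM in oocytes (median 67.8) and a median of 0 in granulosa cells, with 5 or more reads in 2 of 16. Its parent Rpl10 went the other way, with 342 to 576 CPM in oocytes (median 419) and 723 to 1531 in granulosa cells (median 948), without overlap. Rpl39l had 16.2 to 63.9 CPM in oocytes (median 29.8) against a granulosa median of 0, and Rpl39 had a log2 ratio of -0.93. The list's median was -0.93. Of 38 proteasome genes read the only one 4-fold higher in oocytes was Psma8, with 8.16 to 39.3 CPM in oocytes (median 17.1) and at most 0.0751 in a granulosa cell, while its ubiquitous relative Psma7 differed by -0.39. These copies are close in sequence to their parents, and reads could be shared between them.

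Rpl3l, a muscle ribosomal protein, was among the 5 ribosomal genes 4-fold higher in granulosa cells, 2 without the 6 libraries. It had no count in any oocyte and all of its granulosa counts came from library 8, so the difference rests on that library alone. Rpl3 itself had 126 to 297 CPM in oocytes (median 176) and 413 to 1803 in granulosa cells (median 909), without overlap.

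On the granulosa side, 16 of 17 lineage transcription factors read were at least 4-fold higher in granulosa cells, with a median of -4.38 (-1.89 with cell medians). Foxl2, which maintains the ovarian fate of granulosa cells, had 0 to 229 CPM in them (median 14.4) and 0 to 5.14 in oocytes (median 0.535). Gata4 had 0 to 307 CPM (median 166) against 0 to 35.3 (median 0.0795), with 13 of 16 granulosa cells above every oocyte. Emx2, a homeobox gene of the urogenital ridge, had a log2 ratio of -6.87 (-7.51 without oocyte 7) and Nr5a1, the steroidogenic factor, of -4.67. Tcf21, which also marks stroma, went from -4.11 to -3.13 without granulosa library 13. It was at -1.15 without the 6 libraries in which stroma markers exceeded granulosa markers. Tcf21 is itself among those stroma markers, so this value depends in part on the choice of libraries.

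Of 16 secreted and hormone genes of granulosa cells read, 15 were 4-fold higher there, with a median of -4.84. Inha ran from 0.305 to 10830 CPM in granulosa cells (median 1260.0) and from 1.2 to 659.6 in oocytes (median 34.8). Clu, a secreted chaperone, had 1.21 to 6205 CPM (median 1757) against 0.482 to 278 (median 18.7), and 14 of 16 granulosa cells lay above every oocyte. Fst, the activin antagonist, had a log2 ratio of -6.04 (-6.99 without oocyte 16) and Amhr2, the receptor of anti-Müllerian hormone, of -4.54. Genes of later follicles were seen in few cells: Fshr had 5 or more reads in 6 of 16 granulosa cells, Cyp19a1 in 4 and Inhbb in 7, each with a median of 0. The log2 ratio of Fshr, with the 1 oocyte count set to 3, was -11.44 (-18.33 to -10.55), that of Cyp19a1 -4.54 (-5.40 without oocyte 14 and -3.65 without granulosa library 6) and that of Inhbb -4.61 (-5.29 without oocyte 13 and -3.76 without granulosa library 1). Hsd3b1, an enzyme of steroid synthesis, had 0.229 to 8055 CPM in granulosa cells (median 490.0) and 0.185 to 449.7 in oocytes (median 10.5), while Cyp17a1, Star and Insl3, markers of androgen-making cells, were below 5 CPM in both groups.

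Adhesion and junction genes lay on opposite sides by isoform. Gja4 encodes connexin 37, the gap junction protein of the oocyte, and Gja1 connexin 43, that of the granulosa cell. Gja4 had 361 to 596 CPM in oocytes (median 448) and 0 to 255 in granulosa cells (median 0.432), without overlap. Gja1 had 0.970 to 1434 CPM in granulosa cells (median 518) and 0 to 64.8 in oocytes (median 5.32), and 13 of 16 granulosa cells lay above every oocyte. Gjb2, connexin 26, was read in oocytes alone, with a median of 4.57 CPM and at most 0.0814 CPM in a granulosa cell. The classical cadherins split in the same manner. Cdh1 (E-cadherin) had 0 to 65.1 CPM in oocytes (median 30.4) and a log2 ratio of 4.81 (10.68 without granulosa library 7), Cdh3 (P-cadherin) had 7.36 (9.92 without granulosa library 4), and Cdh2 (N-cadherin) was higher in granulosa cells at -3.47 (-4.75 without oocyte 16), with 0 to 160.0 CPM there (median 5.62). Epcam, an epithelial adhesion protein, had 136 to 299 CPM in oocytes (median 196) and 0 to 234 in granulosa cells (median 0.0375). It was the only one of 13 keratin and desmosome genes read that was 4-fold higher in oocytes, whereas 6 were in granulosa cells, Krt8 among them at -5.51 (-4.88 without granulosa library 3).

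Matrix genes were higher in granulosa libraries, and the interstitial matrix difference was smaller without the libraries high in stroma markers. Several interstitial matrix genes, Col1a2 among them, are themselves stroma markers. Their fall without those libraries is thus in part fixed by the choice of libraries. Of 16 basement membrane genes read, 12 were 4-fold higher in granulosa cells, and of 16 interstitial matrix genes 14, with medians of -3.62 (-0.03 with cell medians) and -3.93. Without the 6 libraries with high stroma markers these were -3.29 and -1.76, and the 4-fold counts were 11 and 6 of 16. Lama1, a laminin chain of the follicle's basement membrane, kept a ratio of -4.39 (from -3.88), and Col1a2, a fibrillar collagen, went from -4.31 to -2.04. Sparc, a matrix glycoprotein, did not overlap at all, with 834 to 12687 CPM in granulosa cells (median 2615) and 0.0926 to 467 in oocytes (median 45.6). Of 14 genes read on the integrin list, 10 were 4-fold higher in granulosa cells, and 4 without the 6 libraries, when 3 were 4-fold higher in oocytes. The 14 include Itgb1bp1 (0.33) and Itgb3bp (-0.53), which are not integrins themselves. The laminin receptor subunit Itga6 had 0 to 1267 CPM in granulosa cells (median 419) against 6.42 to 83.9 in oocytes (median 40.7). Its partner Itgb1 had 108 to 801 (median 389.8) against 48.9 to 128 (median 90.2). The median of the integrin list, -3.37, was 0 with cell medians. It became -2.16 without granulosa library 3 alone and 0.33 without the 6 libraries, while Itga6 stayed at -3.95 and Itgb1 at -2.03. Leaving out oocyte 4 moved the interstitial matrix median to -4.64 and Col1a2 to -5.01. The part of stromal transcripts in these differences was not tested beyond these values.

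Ligands and receptors of follicle signalling were read as 44 pairs, of which 25 had both members at 5 CPM or more in a group. Kitl and Kit were the only pair with its ligand 4-fold higher in granulosa cells and its receptor 4-fold higher in oocytes. Kitl, the KIT ligand, had 0 to 413 CPM in granulosa cells (median 108), 0 to 18.1 in oocytes (median 0.172) and a log2 ratio of -5.48 (-5.60 to -5.36), opposite to 9.54 (9.30 to 9.79) for Kit. Leaving out oocyte 3 moved Kitl to -6.10, and leaving out granulosa library 8 moved Kit to 10.65. In 3 pairs the ligand was 4-fold higher in oocytes and the receptor in granulosa cells: Gdf9 with Bmpr2, Bmp15 with Bmpr2, and Rspo2 with Lgr4. Bmpr2, a type II receptor, had a ratio of -2.95. Rspo2, which enhances WNT signalling, had 4.92 to 111 CPM in oocytes (median 56.3) and at most 0.113 in a granulosa cell. Its receptor Lgr4 had a ratio of -2.78, which was under 4-fold without the 6 libraries, at -1.44, and without granulosa library 3 alone, at -1.72.

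The Notch and hedgehog pairs were arranged differently. Both Notch ligands read were higher in oocytes. Jag2 had 75.3 to 348 CPM there (median 182) and 0 to 60.4 in granulosa cells (median 0.0875), without overlap, and Jag1 had a ratio of 2.28 (3.0 without granulosa library 4) and was under 4-fold, at 1.89, without the 4 libraries. The receptor Notch2 was under 4-fold, at -1.23 (-2.05 without oocyte 10 and -0.17 without granulosa library 10), with medians of 0.872 CPM in oocytes and 2.47 CPM in granulosa cells. The hedgehog ligands Dhh and Ihh and their receptor Ptch1 were all 4-fold higher in granulosa cells, with 5 or more reads of Dhh in 3 and of Ihh in 3 of 16 cells and a Ptch1 ratio of -2.63 (-1.96 without granulosa library 10). They were among the 8 pairs with both members on the granulosa side. The receptors Bmpr1b, Bmpr1a, Tgfbr1 and Igf1r differed by less than 4-fold in the summed cells, from -0.94 for Bmpr1a to -0.01 for Bmpr1b. All changed sign with cell medians, to 4.08 for Bmpr1b, 2.26 for Tgfbr1, 0.34 for Igf1r and 0.29 for Bmpr1a. Without the 6 libraries Bmpr1b was at 0.70 and Igf1r at 0.38. Fgf8, Dll4 and Met were not analysed here.

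Energy metabolism differed in single enzymes more than in whole pathways. Lactate dehydrogenase is built from the subunits A and B, of which the first favours lactate production. Ldha had 0.184 to 74.8 CPM in oocytes (median 23.2) and 313 to 2558 in granulosa cells (median 896), without overlap and with a log2 ratio of -5.08 (-5.12 to -5.04). Ldhb had 671 to 5949 CPM in oocytes (median 4027) and 585 to 6316 in granulosa cells (median 2007), a ratio of 0.60. Ldha thus made up 0.00310% to 3.73% of the reads of both subunits in an oocyte (median 0.676%) and 8.01% to 79.0% in a granulosa cell (median 31.3%). Of 17 genes of glycolysis and of glucose or lactate transport read, 7 were 4-fold higher in granulosa cells and none in oocytes, with a median of -0.77 (0.45 with cell medians). They included the 3 phosphofructokinase genes, Pfkl at -2.35, Pfkm at -2.02 and Pfkp at -4.04. None of the 3 held throughout: Pfkl and Pfkp were under 4-fold, at -1.76 and -0.96, without the 6 libraries, Pfkp without granulosa library 8 was at -1.79, and Pfkm without granulosa library 10 at -1.57. Gapdh differed by -0.77.

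The citrate cycle and the respiratory chain were nearly level. Of 27 genes of pyruvate entry and the citrate cycle read, none was 4-fold higher in oocytes and Idh2 alone was in granulosa cells, with a list median of 0.29. Idh2, the mitochondrial isocitrate dehydrogenase that makes NADPH, had 0.293 to 1389.9 CPM in granulosa cells (median 656) and 0 to 90.2 in oocytes (median 18.9), and 15 of 16 granulosa cells lay above every oocyte. Of 76 nuclear genes of the respiratory chain, Ndufa4l2 alone passed 4-fold, at -3.68, on 1 granulosa cell, number 3, without which it was at 6.11. The list median was -0.18. Cholesterol synthesis was mixed. Fdft1, squalene synthase, had 947 to 1393 CPM in oocytes (median 1183) and 0.243 to 609 in granulosa cells (median 88.2), without overlap. Insig1, a brake on the pathway, was higher in oocytes at 5.32 (6.87 without granulosa library 2), while Msmo1, a later enzyme, was higher in granulosa cells at -3.64. Of 26 amino acid transporters read, 12 were 4-fold higher in granulosa cells and 4 in oocytes, with a median of -0.66. Without the 6 libraries the counts were 7 and 7 and the median 0.79, so the larger granulosa count was not kept. One of the 4 was Slc6a9, the glycine transporter of the egg, with 172 to 416 CPM in oocytes (median 264) against 0 to 103 (median 0.102), without overlap.

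**Figure D5:**
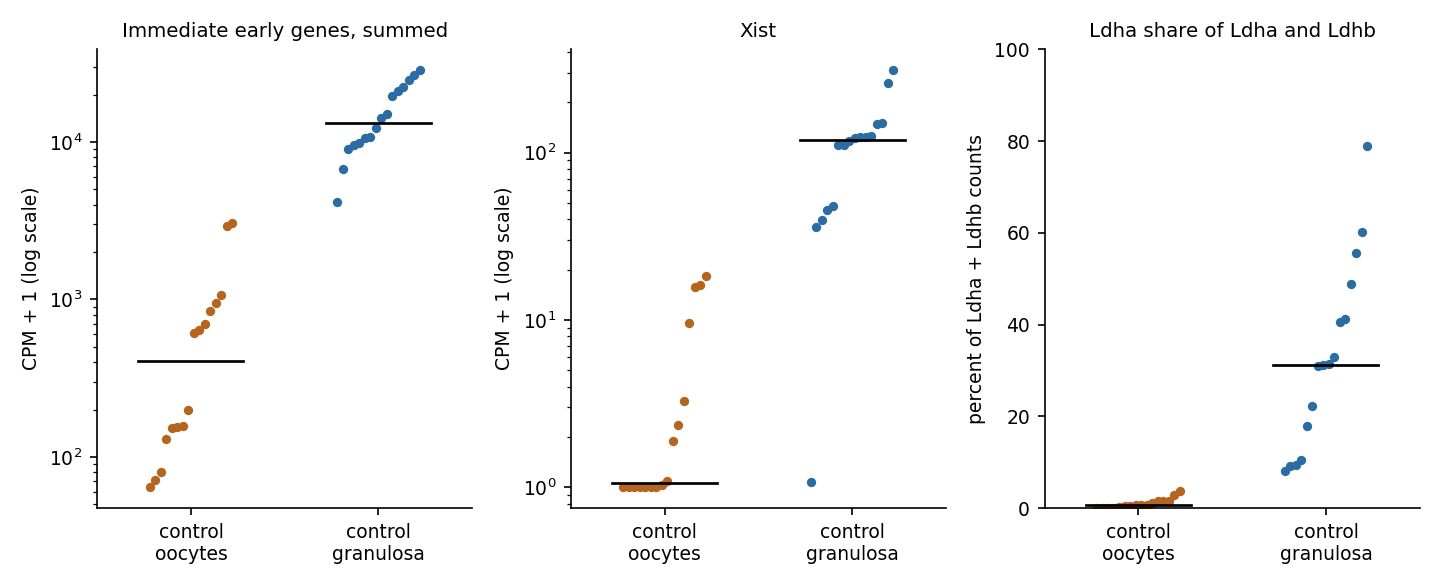
Values in each of 16 oocytes and 16 granulosa cells: summed CPM of the 24 listed immediate early genes and CPM of Xist (both on log axes after adding 1), and the percent of Ldha among the counts of Ldha and Ldhb (linear axis). Black bars are medians; the first and the last panel show no overlap between the groups, and in the middle 1 granulosa cell lies among the oocytes.

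Immediate early genes, which cells switch on within minutes of a stimulus, were among the most one-sided lists. All 22 read were at least 4-fold higher in granulosa cells, with a median of -4.42, and their summed level ran from 63.2 to 3045 CPM in oocytes and from 4160 to 28632 CPM in granulosa cells. Jun had 199 to 3245 CPM in granulosa cells (median 915) and 0.0829 to 187 in oocytes (median 14.6), without overlap. Fos had 462 to 10875 CPM (median 3986) against 0.463 to 1206 (median 79.7), with 14 of 16 granulosa cells above every oocyte, and Egr1 392 to 4445 CPM (median 2325) against 0.738 to 541 (median 60.8). The heat-shock genes Hspa1a, Hspa1b and Dnajb1 lay on the same side, at -5.27, -5.18 and -2.06 (-1.86 without granulosa library 10), while the list of 16 chaperones had a median of -0.23. How the cells were isolated is not given in the sources used here.

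Antigen presentation and imprinted genes were mostly on the granulosa side. Of 10 genes of MHC class I presentation read, 9 were 4-fold higher in granulosa cells, with a median of -3.78 (-0.40 with cell medians). B2m, the invariant chain, had 103 to 1873 CPM in granulosa cells (median 329.8) and 17.6 to 101 in oocytes (median 32.2), without overlap, and the heavy chain H2-K1 had a ratio of -3.79. Of 17 paternally expressed imprinted genes read, 12 were 4-fold higher in granulosa cells and none in oocytes, with a median of -3.23 (0 with cell medians). Peg3 had 53.6 to 854 CPM in granulosa cells (median 418) and 18.5 to 147 in oocytes (median 63.6), and Mest had 0 to 945 CPM (median 124) against 0 to 24.1 (median 3.54). Of 9 maternally expressed genes read, 3 were 4-fold higher in granulosa cells and 1 in oocytes, and 0 and 2 without the 6 libraries. The oocyte-high gene of the full comparison was Ascl2, a bHLH factor of the placenta, with a median of 4.80 CPM in oocytes and at most 0.121 CPM in a granulosa cell. H19 and Grb10 were under 4-fold without the 6 libraries, at -1.55 and -0.29, and H19 also without granulosa library 3, at -0.96. Rian changed sides, from -4.56 to 4.92 without the 4 libraries and 4.62 without the 6. Its highest granulosa value was 188 CPM, in library 13, without which it was at -2.17, and without oocyte 5 it was at -5.59.

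Xist, the RNA that coats the inactive X chromosome of female somatic cells, had 0.0806 to 310.0 CPM in granulosa cells (median 118) and 0 to 17.3 in oocytes (median 0.0621). Its log2 ratio was -5.12 (-5.24 to -5.01), and 15 of 16 granulosa cells lay above every oocyte. Over 450 X-linked genes read the median log2 ratio was -0.35, against -0.02 over 11787 autosomal genes. Limited to genes with at least 5 CPM in both groups, the medians were -0.06 over 283 X-linked and 0.07 over 8615 autosomal genes. The sign of the X-linked median changed with the comparison of cell medians, to 1.12, and with genes of 3 or more counts, to 0.20. The autosomal median was not computed in these settings, so these values do not set X-linked against autosomal genes.

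Genes of cell death and of oocyte growth were read last, since the oocytes of this stage die readily after DNA damage. Trp63, the p53-family member of oocytes, had 43.8 to 172 CPM in oocytes (median 99.9) and a median of 0 in granulosa cells, with 5 or more reads in 3 of 16. The BCL2 family divided by member. Bcl2l10, a survival protein of the egg, had 14.4 to 113 CPM in oocytes (median 39.2) and reads in granulosa library 3 almost alone, so that its ratio of 3.31 became 10.94 without that library. Bok, a pro-apoptotic member, had 0 to 315 CPM in granulosa cells (median 153) and 0 to 31.8 in oocytes (median 0), with 13 of 16 granulosa cells above every oocyte. Mcl1 was higher in granulosa cells at -2.05 and Bcl2l1 in oocytes at 2.03, both at the edge of 4-fold: single cells left out took Mcl1 to -1.91 (granulosa library 10) and Bcl2l1 to 1.92 (granulosa library 7) or 2.91 (granulosa library 2). Bbc3 and Pmaip1, the p53 targets PUMA and NOXA, were below 5 CPM in both control groups.

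Among 19 kinases, phosphatases and regulators of follicle activation read, 3 were 4-fold higher in oocytes, namely Kit, Pik3cd and Tsc1, and Cdkn1b was in granulosa cells. Over all genes read the shares were 16.4% and 19.7%, so 3 of 19 is near the background. Tsc1, a brake on mTOR signalling, was at the edge of 4-fold, with 2.06, and 1.79 without the 4 libraries. Pik3cd, a catalytic subunit of PI3-kinase, had 23.5 to 193 CPM in oocytes (median 62.7) and 5 or more reads in 1 granulosa cell. Cdkn1b, the cell cycle inhibitor p27, had 0 to 306 CPM in granulosa cells (median 50.05) and 2.31 to 33.1 in oocytes (median 7.54). Foxo3, which holds the primordial follicle at rest, was under 4-fold at 1.83. Of 19 proliferation genes read, 3 were 4-fold higher in granulosa cells and none in oocytes, neither above the share over all genes read. Ccnd2, the D-type cyclin of granulosa cells, had 0.441 to 2204 CPM there (median 1181) and 0 to 112 in oocytes (median 15.6), with 15 of 16 granulosa cells above every oocyte. Top2a ran from 0 to 1365 CPM in granulosa cells with a median of 2.56, against 28.1 in oocytes, and its ratio of -2.40 was -1.61 without granulosa library 5. The histone variant H2az1 had 411 to 4725 CPM in granulosa cells (median 659) and 84.7 to 234 in oocytes (median 125), without overlap.

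The Hippo pathway, which senses tension in the follicle, and the cytoskeleton completed the survey. Of 15 Hippo genes read, 7 were 4-fold higher in granulosa cells and none in oocytes, with a median of -1.77 (0.07 with cell medians). Its targets Ccn1 and Ccn2 had ratios of -4.77 (-5.65 without oocyte 9) and -5.50 (-6.08 without oocyte 9 and -3.90 without granulosa library 4), with granulosa medians of 204 and 26.6 CPM and highest values of 4380.1 and 3180.1 CPM, while the effector Yap1 differed by -1.77. Of 25 genes of actin, tubulin and intermediate filaments, 11 were 4-fold higher in granulosa cells and Tubb2b alone in oocytes, with 39.9 to 232 CPM there (median 97.5) and 0 to 62.6 in granulosa cells (median 0.411). Tmsb4x, which binds free actin, had 259 to 1788 CPM in granulosa cells (median 596) and 2.32 to 196 in oocytes (median 12.9), without overlap.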

How the data were processed

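The deposited table holds 23927 gene rows for 61 cells, each cell a GEO sample, prepared with a SMART-seq kit per the labels' protocols. Its values are estimated counts deposited by the authors: 32.5% of the nonzero values were not whole (tolerance 1e-09). The submitters' processing notes name Partek, Bowtie2, HISAT2, DESeq2 and mm10, without role or order. Versions, and whether strand was used, are not given in the sources used here, so overlapping and antisense genes cannot be told apart. Samples were grouped by their titles, and no doublet caller was run. No mitochondrially encoded gene has a row. The 22 symbols turned into dates by a spreadsheet (0.144% of counts) stayed in the totals.

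Values were rounded to whole numbers and summed over the 16 cells of a group, giving totals of 195716771 and 179838277 counts. A gene was read where 1 of the groups had 5 CPM or more. A group under 3 counts was set to 3 counts for the log2 ratio, and a gene was called at 4-fold. Each group is 1 sample, so no test was made. Intervals were computed with scipy 1.17.1. The log2 ratios were checked on simulated counts, and the coverage of the intervals was not checked. Also used were numpy 2.4.6, pandas 2.3.3, matplotlib 3.10.9 and Python 3.11.15. No 2 libraries of the same group agreed within sampling noise. The smallest chi-square per degree of freedom was 56.7 in oocytes and 435 in granulosa cells. Pairs across the groups were not compared.

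Chromosomes, gene positions and exon lengths came from the GENCODE M21 annotation of GRCm38, which matched 97.6% of symbols. Mitochondrial look-alikes were found with blastn 2.17.0. The 38 pathway and 8 marker lists, the pairs and the members were chosen with earlier results of these data known. Histone symbols of the lists were translated to those of the table after it was seen. Genes named outside the lists were up to 12 a direction with 50 CPM or more in their higher group and 5 or more reads in 75% of that group's cells, ranked by the smallest difference over leaving out each cell. Pair members, the 10 highest genes per length in each group and Xist were named too, as were list members. The alternatives were other scalings (edgeR 4.0.16 TMM and DESeq2 1.42.0 size factors in R 4.3.3), equal weights or medians over cells, other filters and thresholds, and leaving out libraries. Results for 2 list members are not reported here.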

Additional observations from a re-analysis of the deposited data

Results flagged for a closer look

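The same contrast was computed in the doxorubicin cells, 16 oocytes against 13 granulosa cells, which share no cell with the control groups. Of 172 named genes read, 157 lay on the same side in both, and of 46 lists 41. In the results below the log2 ratio lay on opposite sides in every version that left out 1 cell, and the difference between control and doxorubicin was not tested. Gdf9, the oocyte growth factor, was at 3.82 in control and -1.69 in doxorubicin cells. Zar1, an RNA-binding maternal-effect gene, was at 2.5 and -1.46, H1f8, the oocyte linker histone, at 2.62 and -1.63, and Khdc3 of the subcortical maternal complex at 1.86 and -1.93. In these 4 the doxorubicin granulosa libraries thus held more of an oocyte transcript than the doxorubicin oocytes, while the 16 oocyte markers summed to 324 to 37019 CPM (median 7935) in the former and 15505 to 60509 CPM (median 29819.7) in the latter. Ldhb was at 0.60 and -0.37.

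Granulosa-side results turned the other way. Cyp19a1, aromatase, was at -4.54 in control and 6.81 in doxorubicin cells, with 5 or more reads in 4 of 16 control granulosa cells. Rpl3l was at -10.18, a value set by the floor of 3 counts in oocytes and by granulosa library 8, and at 6.84 in doxorubicin cells. Without that library both control groups stood at the floor and the ratio was -0.22. That sign comes only from the totals of the groups, so Rpl3l met the rule on leaving out 1 cell through the floor. The median over the 2 endothelium markers read, Cdh5 and Tek, was at -6.88 and 2.44. The control value was -1.55 without the 6 granulosa libraries with high stroma markers, where Tek was at 6.17, and 0 with cell medians.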

How the results depend on the processing

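Of the alternatives to the main processing, TMM and DESeq2 scaling, equal weights per cell and leaving out the libraries that stand apart kept both 4-fold counts within 1.5 times of the main 2025 for oocytes and 2439 for granulosa cells. Leaving out each cell in turn gave 2008 to 2134 and 2344 to 2466 genes. The counts were 5688 and 744 with medians over cells, 1305 and 1572 with a 20 CPM filter, 6062 and 4592 with all genes of 3 counts, 3590 and 3868 at 2-fold, and 1289 for oocytes at 8-fold. The X-linked median was -0.26 with DESeq2 size factors, -0.27 with the 20 CPM filter, 0.20 with 3 counts, 1.12 with cell medians, -0.28 without the 4 and -0.19 without the 6 libraries, and -0.41 to -0.29 over single cells left out. The autosomal median was 0.01 without the 4 and 0.07 without the 6 libraries, and was not computed in the other settings. The causes of these moves were not tested, beyond the change in the genes or cells counted. Values at 4-fold that changed sign were, with cell medians, 0.98 (Grb10), 0.22 (Hormad2), 0.94 (Ndufa4l2), 1.62 (Pfkm), 0.71 (Pfkp), 0.66 (Tcf21), 3.07 (Top2a) and 0.24 (surface epithelium, 1 gene, Lgals7). Without the 4 libraries they were 5.95 (Hormad2) and 4.92 (Rian), and without the 6 5.65 (Hormad2), 5.52 (Ndufa4l2), 4.62 (Rian), 6.17 (Tek) and 0.33 (integrin list). Over single cells left out, Hormad2 ran from -4.01 to 6.25 (without granulosa library 8), Tek from -5.54 to 1.01 (without granulosa library 3) and Ndufa4l2 from -4.04 to 6.11 (without granulosa library 3). With all genes of 3 counts they were 4.59 (surface epithelium) and 0.94 (steroidogenic markers). Of lists whose median was under 4-fold, 11 changed sign with cell medians: cadherins and gap junctions (2.48), keratins (1.00), maternally expressed imprinted genes (0.98), glycolysis (0.45), cholesterol (2.5), amino acid transporters (1.38), proteasome (0.13), canonical histones (0.43), proliferation (3.26), the p53 and BCL2 families (1.65) and Hippo (0.07). Without the 6 libraries 4 such lists did: cadherins and gap junctions (0.25), maternally expressed imprinted genes (0.45), amino acid transporters (0.79) and proteasome (0.01). Of named genes under 4-fold, 5 changed sign with cell medians: Bmpr1b (4.08), Tgfbr1 (2.26), Yap1 (0.77), Igf1r (0.34) and Bmpr1a (0.29). Another 2 counts of such changes came without the 4 libraries (Bmpr1b and Ccnb2) and 2 without the 6 (Bmpr1b and Igf1r). Other settings changed the sign of at most 3 such lists and 2 such genes each. Of the 24 lists with a 4-fold median, 9 were under 4-fold with cell medians, 4 without the 6 libraries, 1 without the 4 and 3 with all genes of 3 counts. The 9 included the lineage transcription factors, basement membrane, integrin list, MHC class I and paternally expressed imprinted genes. The others were the surface epithelium, smooth muscle and pericyte, endothelium, and blood and immune markers. Of 147 named genes at 4-fold, 24 were under it with cell medians, 15 with some cell left out, 6 without the 4 libraries and 14 without the 6. TMM and DESeq2 moved all log2 ratios by 0.05 and 0.09. No paired analysis was possible because no test was made and the cells' numbers only name them. A gene without counts in a group of 16 cells could have had up to 3 counts there, 0.0153 CPM in oocytes and 0.0167 CPM in granulosa cells, so lower levels cannot be seen.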

Other observations

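Heterogeneity among granulosa cells was also seen in other marker lists. The summed steroidogenic markers ran from 0.570 to 8055 CPM over the 16 granulosa libraries (median 490.0), and Hsd3b1 was the only one of them at 5 CPM or more in a group. This sum was highest in libraries 11 and 5, whose granulosa markers summed to 10155 and 9142 CPM. It was lowest in libraries 13 and 3, whose granulosa markers summed to 514 and 2175 CPM. Other libraries departed from this order: library 4 had sums of 4677 CPM for granulosa and 39.3 CPM for steroidogenic markers, and library 8 had 2536 and 1776 CPM. Whether the steroidogenic sum comes from another cell type was not tested. The smooth muscle and pericyte markers ran from 0 to 6981 CPM (median 79.3). Of the 9 blood and immune markers, Ptprc, Csf1r, C1qa, C1qb, Lyz2, Hba-a2 and Hbb-bt were below 5 CPM in both groups. The 2 read, Hba-a1 and Hbb-bs, were 4-fold higher in granulosa cells, at -4.19 and -3.8. Their list summed to 0 to 466 CPM in granulosa libraries (median 8.3), highest in library 14, and to at most 21.97 CPM in an oocyte. Without library 14 the median log2 ratio of the list was -2.03.

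Long non-coding RNAs took a median of 0.658% of the counts of an oocyte and 0.973% of those of a granulosa cell, and pseudogenes 1.64% and 2.83%. NOBOX elements (TAATTG) were in 5.81% of the promoters of all oocyte-high genes and 4.02% of those of all granulosa-high genes, and NR5A1 half-sites (AAGGTCA) in 3.22% and 2.55%, in each case below the share over all promoters.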
